A study of Saccharomyces cerevisiae with 30 samples.

Results

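The iron uptake regulon of Saccharomyces cerevisiae is represented here by 10 listed genes out of 5547 genes on the array: FET3, FTR1 and FRE1 of reductive iron uptake, the cell wall genes FIT1, FIT2 and FIT3, the siderophore transporter genes ARN1, ARN2 and SIT1, and TIS11, whose product binds mRNA. The list was taken as given, and its rule sets no threshold on a measured value. It was, however, chosen with earlier results of these data known. Every one of the 10 had a value on all 21 arrays of the model and passed the filter on missing values.

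Budding yeast takes up iron by 2 routes. In the reductive route, reductases at the plasma membrane turn ferric into ferrous iron, which a multicopper oxidase and a permease carry in together, and in the other route, ferric iron bound to siderophores, small chelators made by other microbes, is taken up whole. When iron is scarce, the transcription factors Aft1 and Aft2 activate the genes of both routes, the mannoproteins that hold siderophores in the cell wall, and a protein that speeds the decay of mRNAs for iron-using enzymes. In iron-replete cells, signals from iron-sulfur cluster synthesis, carried by the glutaredoxins Grx3 and Grx4 and the proteins Fra1 and Fra2, keep Aft1 inactive.

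The series compared strains on 30 arrays with 2 channels, under a title that names the coactivators TFIID and SAGA, which help to bring the TATA-binding protein to promoters. YKH100, YKH101, YJS7, YJS8 and YJS9 were set against YJS6, and YKH104, YKH106, YKH107, YKH108 and YKH109 against YKH105, with 2 arrays per strain and 3 for YKH109. Cultures in CSM-Trp-His medium were raised at 26 °C and moved to 37 °C for 45 min, those of the reference strains included, while a further YJS8 group with 2 arrays stayed at 26 °C. Another 7 arrays held a reference strain in both channels. The labels give the strains by name, with no genotype. Since they do not tell whether arrays of a strain hold separate cultures, the spread behind each p-value is that between arrays and may be technical.

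Of the 6400 spots, 5955 to 6388 had a value per array. Replicate 2 of YKH100 and replicate 2 of YJS8 at 37 °C held identical values and were left out, which leaves 1 array for each of these strains and no replicate check of their own. The values are log2 ratios, centred here on each array's median, so that 0 is the median gene. The labels do not give the direction of the ratio. It is read as likely strain over reference, because SPT3 lay at -8.33 in YKH104 and GCN5 at -5.40 in YKH101, and the directions below rest on that reading. The 2 arrays of YJS8 at 26 °C had a correlation of -0.437 across spots, whereas arrays of opposite orientation correlated positively in 8 of 9 strain groups. The deposited medians that the centring removed lay between -0.97 and 0.19 by group. Where a member's called value changes sign without the centring, that is said beside it.

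The iron uptake genes were higher in YJS9 and YKH107 than in their reference strains, with 7 and 6 of the 10 genes past a Benjamini-Hochberg adjusted p of 0.05 in limma and none called lower in either strain. In YJS9 the median over the 10 genes was 1.81, against -0.01 for all genes tested, and 44.1% of all genes were called and 20.9% called higher. In YKH107 the median was 1.25, against 0.00 for all genes, and 48.4% of all genes were called and 23.5% called higher. So called genes are common in both strains, and the members' share of 7 and 6 of 10 stands beside backgrounds of 20.9% and 23.5%. Because the members were chosen with earlier results of these data known, these shares describe the list and do not test it. The count in YKH107 depended on the processing. It was 3 under quantile normalisation, where 11.4% of all genes were called higher, and 4 and 3 without replicate 1 and replicate 2. On the deposited scale 2 members were higher in YKH107 (ARN1 and SIT1) and 2 lower (FIT1 and FRE1), where 0.563% of all genes were called higher and 53.4% lower. In YJS9 the count was 5, all higher, on the deposited scale and under quantile normalisation. There 3.49% and 10.1% of all genes were called higher.

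In the other strains fewer members passed. YKH101 had 3 called, all higher, where 39.3% of all genes were called and 18.9% called higher. YJS7 had 2, both higher, where 14.3% were called and 7.38% called higher. YKH108 had 2 higher and 2 lower, where 37% of all genes were called, 17% higher and 19.9% lower. YKH109 had 2 higher and 1 lower, where 52.8% were called, 25.1% higher and 27.8% lower. YKH108 and YKH109 thus held called members on both sides, in YKH109 at a lower share than all genes.

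YJS8 at 37 °C and YKH104 had 1 member called each, both times ARN1 as higher, where 15.9% and 13.6% of all genes were called, 8.14% and 6.47% as higher. YKH100, YKH106 and YJS8 at 26 °C had 0 members called by limma, and 2, 1 and 0 members had an unadjusted p under 0.05 there. Only 1.33%, 1.09% and 0.0182% of all genes were called in these 3 groups. In all, 27 of 110 tests of a member in a group passed, 24 as higher and 3 as lower. Of these 27 values, 23 kept their sign on the deposited scale, where 11 passed in the same direction, and all 27 kept it under quantile normalisation, where 16 passed. On leaving out each array of a group in turn, 12 of the 26 calls in groups with more than 1 array held throughout.

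**Figure D1:**
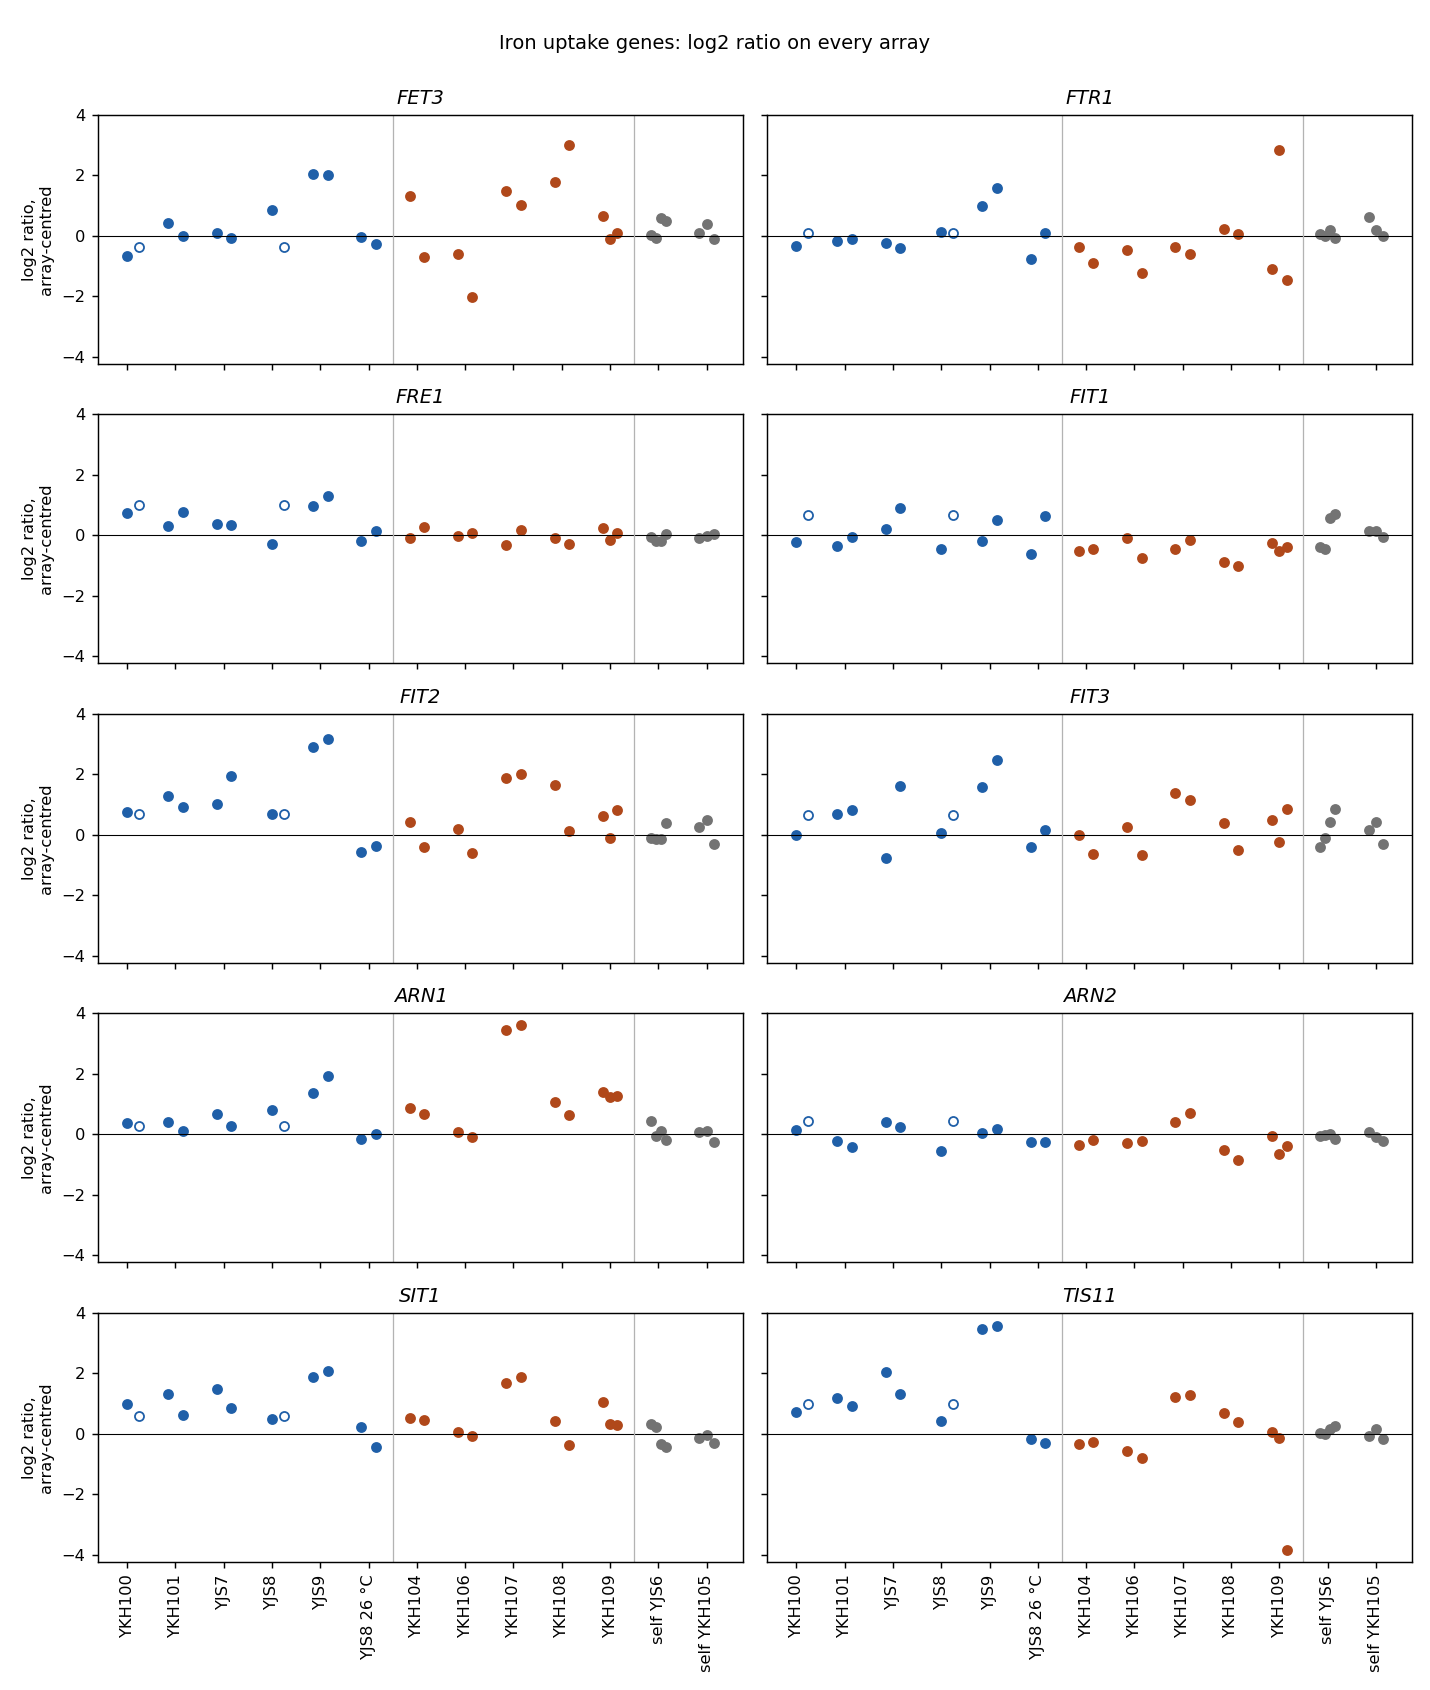
Centred log2 ratio of each of the 10 iron uptake genes on every array, by strain group, with arrays against YJS6 in blue, arrays against YKH105 in red-brown and self arrays in grey. Open circles mark the column repeated under YKH100 and YJS8. FIT2 and TIS11 reach 3.16 and 3.55 in YJS9 and ARN1 reaches 3.63 in YKH107, whereas FTR1 at 2.86 and TIS11 at -3.86 each come from 1 YKH109 array.

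FIT2, a mannoprotein of the cell wall that helps to retain siderophores, was among the genes with the highest ratios in YJS9. Its log2 ratio was 2.91 and 3.16 on the YJS9 arrays, and between -0.15 and 0.40 on the YJS6 self arrays. The fitted value was 3.04 ± 0.34 (SE, n = 2), an 8.20-fold difference that ranked 14th from the highest of 5420 genes tested, with a limma adjusted p of 2.32e-05. Both arrays stood far above the self arrays.

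In YKH107, FIT2 lay at 1.88 and 2.02, against a range of -0.29 to 0.50 on the YKH105 self arrays. It rose by 1.95 ± 0.34 there, with a limma adjusted p of 0.000502. Both YKH107 arrays were again above every self array. FIT2 also passed in YJS7, with 1.02 and 1.94 by array and a fitted 1.48 ± 0.34 (limma adjusted p = 0.0141), and in YKH101, with 1.30 and 0.94 and a fitted 1.12 ± 0.34 (limma adjusted p = 0.0198). These smaller rises were less firm when arrays were left out. In YKH101 the call was lost without either array, at 1.055 and 1.18, and in YJS7 it was lost without replicate 2, at 0.83. On the deposited scale FIT2 passed in YJS9 alone, and its YKH107 value was 0.99 with a limma adjusted p of 0.0913.

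FIT2 was uneven in YKH108, with 1.65 and 0.14, and reached 0.89 ± 0.34 there with a limma adjusted p of 0.055. YKH109 gave 0.63, -0.11 and 0.83. YKH104 gave 0.42 and -0.40 and YKH106 gave 0.18 and -0.60, both pairs crossing 0. In order, FIT2 was highest in YJS9, then YKH107, YJS7 and YKH101. YJS9 and YKH107 were set against different reference strains and were not tested against each other.

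FIT3, a related mannoprotein and the next gene after FIT2 on the chromosome, moved in the same 2 strains with a wider spread. It was at 1.59 and 2.47 in YJS9, and at 1.38 and 1.14 in YKH107. The self arrays ran from -0.40 to 0.86, so all 4 values lay above them. The fitted rise was 2.03 ± 0.47 in YJS9 (limma adjusted p = 0.00393) and 1.26 ± 0.47 in YKH107 (limma adjusted p = 0.0414). Without replicate 2 of YJS9 the adjusted p was 0.111, and without either YKH107 array it was 0.295 or 0.157. The rises in YJS9 and YKH107 passed neither on the deposited scale (1.52 and 0.30) nor under quantile normalisation (1.21 and 0.98). YJS7 gave -0.76 and 1.62, on both sides of 0, so that FIT3 has no settled direction in that strain.

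FIT1, the third mannoprotein gene of this kind, did not follow. It lay at -0.17 and 0.50 in YJS9 and at -0.44 and -0.16 in YKH107, against -0.46 to 0.71 on the YJS6 self arrays and -0.05 to 0.15 on those of YKH105. The YJS9 values lay within the range of their self arrays and the YKH107 values below theirs, without passing. Its one call was in YKH108, where -0.87 and -0.995 lay below every self array. The fitted value was -0.93 ± 0.25 (limma adjusted p = 0.0115), and the adjusted p was 0.0537 and 0.207 on leaving out replicate 1 and replicate 2 of YKH108. On the deposited scale FIT1 passed as lower in YKH107 and YKH109 too, at -1.26 and -1.32. On the centred scale it was the 1 cell wall gene called lower, in a strain where FIT2 and FIT3 did not pass.

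ARN1, a transporter for ferrichrome-type siderophores, gave the highest member value against YKH105. On the YKH107 arrays it was 3.44 and 3.63, and on the YKH105 self arrays it stayed between -0.24 and 0.09. The fitted value was 3.54 ± 0.16, an 11.6-fold difference that ranked 4th of 5505 genes, with a limma adjusted p of 6.35e-08. Leaving out either array kept it between 3.38 and 3.69.

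YJS9 had ARN1 at 1.35 and 1.92, against at most 0.43 on the YJS6 self arrays, and the rise of 1.64 ± 0.16 passed with a limma adjusted p of 8.26e-06. YKH109 was the most even group for this gene, with 1.39, 1.22 and 1.26 and a fitted 1.31 ± 0.13 (n = 3, limma adjusted p = 6.15e-06). Smaller rises passed in YKH108 (1.08 and 0.64, fitted 0.86 ± 0.16), YKH104 (0.88 and 0.68, fitted 0.78 ± 0.16) and YJS8 at 37 °C (0.80 on its 1 array, fitted 0.76 ± 0.23). ARN1 was therefore called in 6 of 11 groups, the most of any member.

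The calls in YKH104 were lost without either array, and that in YKH108 without replicate 1. On the deposited scale ARN1 turned to -0.12 in YJS8 at 37 °C, while it passed there as higher in YJS9 at 1.13 and in YKH107 at 2.58. YKH106 had ARN1 at 0.07 and -0.09, next to 0.

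SIT1, which carries ferrioxamine-type siderophores, rose in 5 strains. Its ratio was 1.88 and 2.09 in YJS9, where the fit gave 1.99 ± 0.19 with a limma adjusted p of 8.89e-06. It was 1.67 and 1.87 in YKH107, where the fit gave 1.77 ± 0.19 with a limma adjusted p of 1.82e-05. No self array exceeded 0.34, so both strains were clear of them.

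YJS7 gave SIT1 at 1.496 and 0.86 (fitted 1.18 ± 0.19, limma adjusted p = 0.00307), and YKH101 gave 1.31 and 0.63 (fitted 0.97 ± 0.19, limma adjusted p = 0.00175). YKH109 gave 1.05, 0.33 and 0.29, and its call at 0.62 ± 0.16 (limma adjusted p = 0.00616) was lost without replicate 1, at 0.47, and turned to -0.29 on the deposited scale. The YKH101 call was lost without replicate 1, at 0.81. In YKH108 the 2 arrays, 0.44 and -0.37, fell on either side of 0. YJS8 at 37 °C had 0.49 and YKH100 had 0.98 on 1 array each, and neither passed.

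ARN2, a transporter for triacetylfusarinine C in the same family, had small values that went both ways. It was 0.40 and 0.70 in YKH107, fitted at 0.55 ± 0.14 (limma adjusted p = 0.00685), although this became -0.41 on the deposited scale and the call was lost without replicate 2. It was lower in YKH108, at -0.51 and -0.85, fitted at -0.68 ± 0.14 (limma adjusted p = 0.00284). YKH109 had -0.06, -0.66 and -0.38, with a fitted -0.36 ± 0.12 (limma adjusted p = 0.0223) that no longer passed without replicate 2 or replicate 3. In YJS9, where ARN1 and SIT1 were far above 0, ARN2 was only 0.06 and 0.18. On the deposited scale it passed as lower in YKH101 too, at -1.01.

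**Figure D2:**
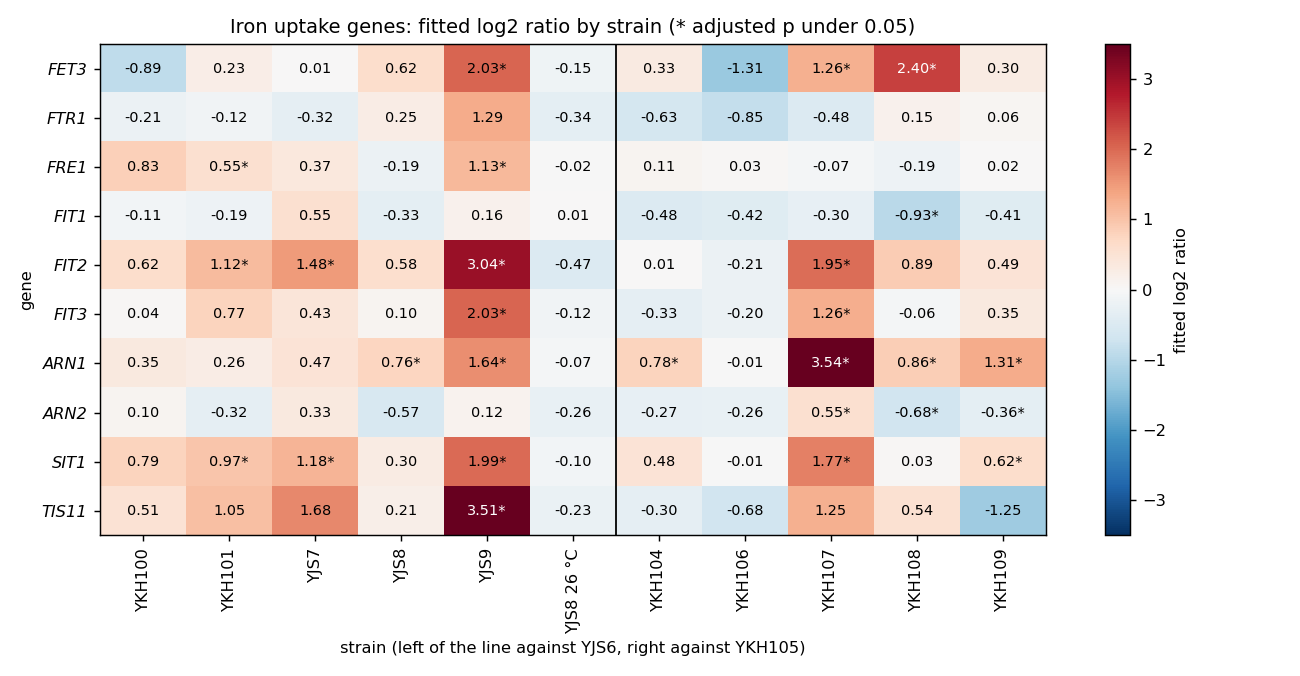
Fitted centred log2 ratio of each iron uptake gene (rows) in each strain group (columns), with values printed in the cells and an asterisk where the limma adjusted p was under 0.05. The YJS9 and YKH107 columns hold 7 and 6 called genes, and FIT1, FTR1 and TIS11 have 1 call or fewer across all 11 columns.

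FET3, the multicopper oxidase of reductive uptake, was highest in YKH108. Its ratio was 1.80 and 2.996 there, against -0.10 to 0.39 on the YKH105 self arrays. The fit gave 2.40 ± 0.38, a 5.27-fold difference that ranked 5th of 5502 genes, with a limma adjusted p of 0.000512. The 2 arrays differed widely, with 1.46 and 3.34 fitted when one or the other was left out, yet both lay above every self array and the call held.

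YJS9 had FET3 at 2.05 and 2.005, fitted at 2.03 ± 0.38 (limma adjusted p = 0.00105), against at most 0.61 on the YJS6 self arrays. YKH107 had 1.48 and 1.04, fitted at 1.26 ± 0.38 (limma adjusted p = 0.0163), and this call was lost on leaving out either of its arrays. Under quantile normalisation the FET3 values of YJS9 and YKH107 were 1.215 and 0.99 and did not pass. In the remaining groups FET3 was low or scattered, with 1.33 and -0.68 in YKH104 and -0.59 and -2.03 in YKH106. The fitted -1.31 ± 0.38 in YKH106 had a limma adjusted p of 0.169.

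FTR1, the permease that works in a complex with Fet3, passed in no group, and its SE of 0.72 was the largest among the members for groups of 2 arrays. That SE came with YKH109, where FTR1 was -1.10, 2.86 and -1.46. Replicate 2 alone was high, and without it the fitted value was -1.28 (limma adjusted p = 0.000763), against 0.06 with it. In YJS9, FTR1 was 0.99 and 1.59, fitted at 1.29 (limma adjusted p = 0.171). With the YKH109 arrays out of the fit, a check added after the values were seen, the same 1.29 had an SE of 0.24 and an adjusted p of 0.00113 in limma. YKH107, in contrast, had FTR1 at -0.37 and -0.59 while FET3 was above 1 on both arrays, and YKH108 had 0.25 and 0.06 beside its high FET3.

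FRE1, a ferric and cupric reductase at the cell surface that also answers to copper, rose in 2 of the strains set against YJS6. It was 0.96 and 1.30 in YJS9, fitted at 1.13 ± 0.15 (limma adjusted p = 0.000102). It was 0.32 and 0.78 in YKH101, fitted at 0.55 ± 0.15 (limma adjusted p = 0.0126), a call that was lost without replicate 2 and a value that turned to -0.14 on the deposited scale. The 1 array of YKH100 had 0.74. Against YKH105, every FRE1 array lay between -0.32 and 0.29, and no group passed. The fitted value was -0.07 in YKH107, where 6 of the other members were called. FRE1 passed as lower in YKH107 and YKH109 on the deposited scale, at -1.03 and -0.88.

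TIS11, also known as CTH2, encodes a zinc finger protein that binds mRNAs of iron-using proteins and promotes their decay. It had the highest member value against YJS6, with 3.47 and 3.55 in YJS9 and no more than 0.25 on the self arrays. The fit gave 3.51 ± 0.63, an 11.4-fold difference that ranked 5th of 5420 genes, with a limma adjusted p of 0.000759. The 2 YJS9 arrays were nearly equal.

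Other strains had TIS11 raised on both arrays without passing. YJS7 had 2.04 and 1.32 (limma adjusted p = 0.095), YKH101 had 1.17 and 0.92 (limma adjusted p = 0.212), and YKH107 had 1.20 and 1.30 (limma adjusted p = 0.121). Each of these lay above the self arrays. As with FTR1, a YKH109 array widened the shared SE: its values there were 0.04, -0.14 and -3.86, and the fitted -1.25 became -0.05 without replicate 3. It passed as lower in YKH109 on the deposited scale, at -2.15.

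With the YKH109 arrays left out of the fit, the SE of TIS11 was 0.14 and the adjusted p in limma was 8.11e-05 in YJS7, 0.000185 in YKH101, 4.18e-05 in YKH107 and 0.0102 in YKH108. TIS11 in YKH106, at -0.55 and -0.81, then had an adjusted p of 0.0443. The number of members called became 8 in YJS9, 7 in YKH107, 6 in YKH108, 4 in YKH101 and 3 in YJS7. The shares of all genes called in that fit were 49.7%, 53.4%, 43.3%, 44.6% and 18.2%, each also above its value with YKH109 in the fit.

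Between strains with a common reference, 33 of 200 tests of a member passed in limma. Of the 10 strain pairs against YJS6, the 4 that hold YJS9 gave a call. ARN1 was the 1 member that passed between YJS9 and YKH101, higher in YJS9 by 1.37 ± 0.22 (limma adjusted p = 0.0122), where 2.5% of all genes were called. In YJS9 against YJS7, where 18% of all genes were called, 4 members passed: FET3 was higher in YJS9 by 2.02, FIT2 by 1.55, ARN1 by 1.16 and FRE1 by 0.76.

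Between YJS9 and YJS8 at 37 °C, with 6.14% of genes called, 3 members passed, and FIT2, SIT1 and FRE1 were higher in YJS9 by 2.46, 1.69 and 1.32. Between YJS9 and YKH100, with 9.8% called, 4 passed, and FET3, FIT2, ARN1 and SIT1 were higher in YJS9 by 2.92, 2.42, 1.29 and 1.20. The YJS8 and YKH100 sides rest on 1 array each. TIS11 differed by 1.83 to 3.30 in the 4 pairs with YJS9 and passed in none. None of the member calls in these 4 pairs passed on the deposited scale or under quantile normalisation, though all kept their sign. FRE1 against YJS7 was at 0.07 on the deposited scale, and SIT1 against YKH100 was at 0.003 under quantile normalisation.

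The other 6 pairs against YJS6 gave 0 members in limma. At an unadjusted p under 0.05 there was 1 member for YKH101 against YJS7 and 1 for YKH101 against YJS8, where 10.8% and 0.859% of all genes were called. There were 0 for YKH101 and 0 for YJS7 against YKH100, where 5.52% and 0.13% were called. There were 2 for YJS7 against YJS8 and 2 for YJS8 against YKH100, where 5.81% and 3.42% were called.

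On the centred scale YKH107 differed from the other strains set against YKH105 in all of the siderophore transporters listed. ARN1 was higher in YKH107 by 2.23 ± 0.20 than in YKH109, by 2.68 ± 0.22 than in YKH108, by 2.76 ± 0.22 than in YKH104 and by 3.54 ± 0.22 than in YKH106. SIT1 was higher by 1.15, 1.74, 1.29 and 1.78 and ARN2 by 0.91, 1.23, 0.82 and 0.81 in the same 4 pairs. All 12 of these differences passed in limma. On the deposited scale ARN1 passed in all 4 pairs, and SIT1 and ARN2 in none. SIT1 against YKH104 was at 0.22 there, and ARN2 against YKH104 and YKH106 turned to -0.24 and -0.33. Under quantile normalisation ARN1 again passed in all 4, and SIT1 and ARN2 against YKH108 and YKH106 alone.

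In those 4 pairs 3, 3, 4 and 5 members passed on the centred scale, where 10.9%, 17.8%, 14.9% and 26.3% of all genes were called. The remaining members that passed were FIT2 against YKH104 and YKH106, by 1.94 and 2.16, and FET3 against YKH106, by 2.57.

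FET3 set YKH108 apart from 3 of the others. YKH109 minus YKH108 was -2.10 ± 0.49, the 1 member that passed where 5.1% of all genes were called. YKH108 was higher than YKH104 by 2.07 ± 0.54, again the 1 member, where 15% were called. YKH107 minus YKH108 was -1.14 ± 0.54 for FET3, which did not pass. Without replicate 2 of YKH108, YKH109 minus YKH108 had a limma adjusted p of 0.488 and YKH108 minus YKH104 one of 0.227.

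The last member calls among the pairs were against YKH106. FET3 and ARN1 were higher in YKH108 by 3.71 and 0.87, the 2 members that passed where 17% of all genes were called. They were higher in YKH109 by 1.61 and 1.32, again the 2 that passed, where 25.7% were called. YKH109 against YKH104 and YKH104 against YKH106 gave 0 members in limma, with 1 and 2 at an unadjusted p under 0.05, where 18.8% and 0.164% of all genes were called.

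Of the 33 calls, 12 held whichever array of the pair was left out. Against the other strains of the YKH105 set these were ARN1 in all 4 pairs with YKH107, SIT1 in YKH107 against YKH108 and YKH106, ARN2 in YKH107 against YKH108, FET3 in YKH108 against YKH106 and ARN1 in YKH109 against YKH106. In the YJS6 set they were ARN1 in YJS9 against YJS7 and YKH100 and SIT1 in YJS9 against YJS8. The only array of YKH100 and that of YJS8 could not be left out, so in those pairs the YJS9 side alone was varied. FIT2 held in none of its 5 pair calls. For ARN1 in YJS9 against YKH101 the adjusted p reached 0.0737.

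**Figure D3:**
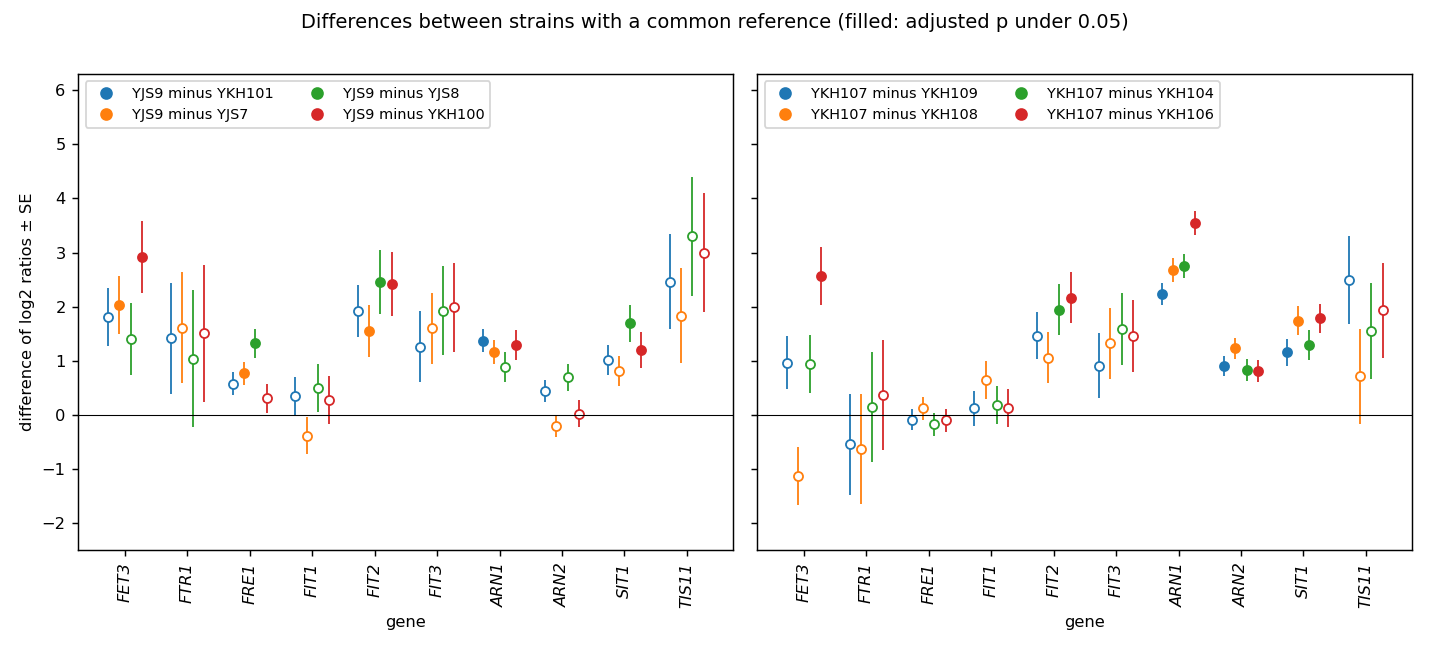
Differences of fitted log2 ratios ± SE between YJS9 and the other strains against YJS6 (left) and between YKH107 and the other strains against YKH105 (right), for each iron uptake gene. Filled points have a limma adjusted p under 0.05. On the right all 4 differences of ARN1, ARN2 and SIT1 are filled, and on the left no gene is filled in all 4 pairs.

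YJS8 alone was measured at both temperatures. None of the 10 members passed between 37 °C and 26 °C in limma, 1 had an unadjusted p under 0.05, and 7.55% of all genes passed. ARN1 was 0.80 on the 37 °C array and -0.15 and 0.00 on the 26 °C arrays, a difference of 0.83 ± 0.28 with a limma adjusted p of 0.096. FIT2 was 0.70 on the 37 °C array and -0.57 and -0.38 at 26 °C, a difference of 1.05 ± 0.59. Both sides of this comparison are ratios to YJS6, and for the 26 °C group the members' fitted values ran from -0.47 to 0.01. The difference is one of temperature only if YJS6 was at the same temperature on both sides. The reference cultures are given as moved to 37 °C. In the 26 °C group, 0.0182% of all genes were called against YJS6, and its 2 arrays correlated at -0.437 across spots. Had YJS6 been unshifted beside the 26 °C group, temperature would cancel within each ratio, which was not tested.

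Across the 11 groups, the members did not all share a profile. FIT2, FIT3, SIT1 and TIS11 each followed the mean of the other 9 members with a Pearson r of 0.97, 0.93, 0.89 and 0.85, whereas r was 0.33 for FIT1 and between 0.50 and 0.63 for the remaining 5. The 45 pairs of members had r from -0.25 to 0.93, with a median of 0.55. The groups within each set share a reference strain, so these values describe the profiles and carry no p.

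The 5 genes whose 11 group values most resembled the mean of the members, of 5191 genes ranked, were YMR085W (r = 0.979), SFH1 (0.956), SPO75 (0.938), IES3 (0.924) and SED5 (0.918). YMR085W was at 2.23 in YJS9, 1.44 in YKH107 and 0.91 in YJS7. SFH1 encodes a subunit of the RSC chromatin remodeller, IES3 one of the INO80 remodeller, and SED5 a syntaxin of the Golgi. SFH1 was at 1.55 in YJS9 and 0.92 in YKH107, below the medians of the members there.

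Other targets of Aft1 and Aft2 moved in part with the 10 genes. Of 16 tested in YJS9, 9 were called higher and 0 lower by limma, with a median of 0.56, where 20.9% of all genes were higher and 23.1% lower. Of 16 in YKH107, 6 were higher and 1 lower, with a median of 0.40, where 23.5% were higher and 24.9% lower. In YJS9 the 4 with the largest values were SMF3, an iron exporter of the vacuole, at 2.11 ± 0.21, FRE6, a vacuolar reductase, at 1.87 ± 0.15, ISU1, a scaffold of iron-sulfur cluster assembly, at 1.58 ± 0.24, and HMX1, a haem oxygenase, at 1.53 ± 0.12. ENB1, the enterobactin transporter of the same family as ARN1, was at 1.35 in YJS9, where ARN1 and SIT1 had risen too. It is named after its value was seen.

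In YKH107, FRE6 was at 1.26, CCC2, the copper pump that supplies Fet3, at 1.21 and SMF3 at 1.09, while ATX1, the copper chaperone that feeds Ccc2, was at -1.36 ± 0.18. ATX1 was likewise lower in YKH108, YKH109 and YKH104, at -1.16, -1.27 and -0.83, and higher in YJS7, at 0.61. CCC2 was called higher in YKH108, YKH109 and YKH104 too, at 0.45, 0.66 and 0.49 on the centred scale. On the deposited scale ATX1 kept its sign in these strains, whereas CCC2 turned to -0.24 in YKH108 and -0.33 in YKH109 and passed in none.

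HMX1, followed across strains after its values were seen, was called higher in 9 of 11 groups, from 0.54 to 1.53, and its sign held in 8 of these on the deposited scale, where it passed as higher in 1. The call counts of the list in the other strains were 7 higher and 1 lower in YKH101 and in YKH108 (of 16 and 15 tested). They were 6 and 1 in YKH109 and 3 and 0 in YJS7 and in YJS8 at 37 °C. Those of YKH104 were 3 and 2, and those of YKH100 1 and 0. The shares of all genes called higher were 18.9% in YKH101, 17% in YKH108, 25.1% in YKH109 and 7.38% in YJS7. They were 8.14% in YJS8 at 37 °C, 6.47% in YKH104 and 0.637% in YKH100. Called lower were 20.4% in YKH101, 19.9% in YKH108, 27.8% in YKH109 and 7.09% in YKH104. Without the centring, 8 of the 9 genes called higher in YJS9 and 4 of the 6 in YKH107 kept their sign, and 4 and 0 of them still passed.

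Of the genes whose products hold Aft1 in check, GRX3, GRX4 and FRA2 were each called lower in 5 or 6 of 11 groups. FRA1 passed in 0 of the 10 groups tested, with values from -0.94 to 0.93. GRX3 was called lower in 6 groups, with -1.58 in YKH109, -1.51 in YKH108 and -1.41 in YJS8 at 37 °C. It was at -1.34 in YKH107, -0.76 in YJS9 and -0.64 in YKH101. In that order, the shares of all genes called lower were 27.8%, 19.9%, 7.74%, 24.9%, 23.1% and 20.4%. In YJS7, where FRA2 was lower too, the share was 6.93%. GRX4 was lower in 5 groups, among them YJS9 at -1.44 ± 0.21 and YKH107 at -1.19 ± 0.21, and FRA2 was lower in 6, among them YJS9 at -0.90 ± 0.10. All 17 of these calls kept their sign on the deposited scale and under quantile normalisation. In YKH109, YKH108 and YJS8 at 37 °C, members called higher numbered 2, 2 and 1, and members called lower 1, 2 and 0. The shares of all genes called in these groups were 52.8%, 37% and 15.9%.

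AFT1 itself was called higher in 4 strains, at 0.51 ± 0.11 for YJS9, 1.20 ± 0.11 for YKH107, 0.51 for YKH108 and 0.43 for YKH109, but only 2 of these 4 values kept their sign on the deposited scale and none passed there. AFT2 was at 0.61 in YJS9, 0.52 in YKH108 and 0.44 in YKH109, and 1 of the 3 kept its sign. Whether GRX3, GRX4, FRA2 or AFT1 has a part in the members' values was not tested.

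**Figure D4:**
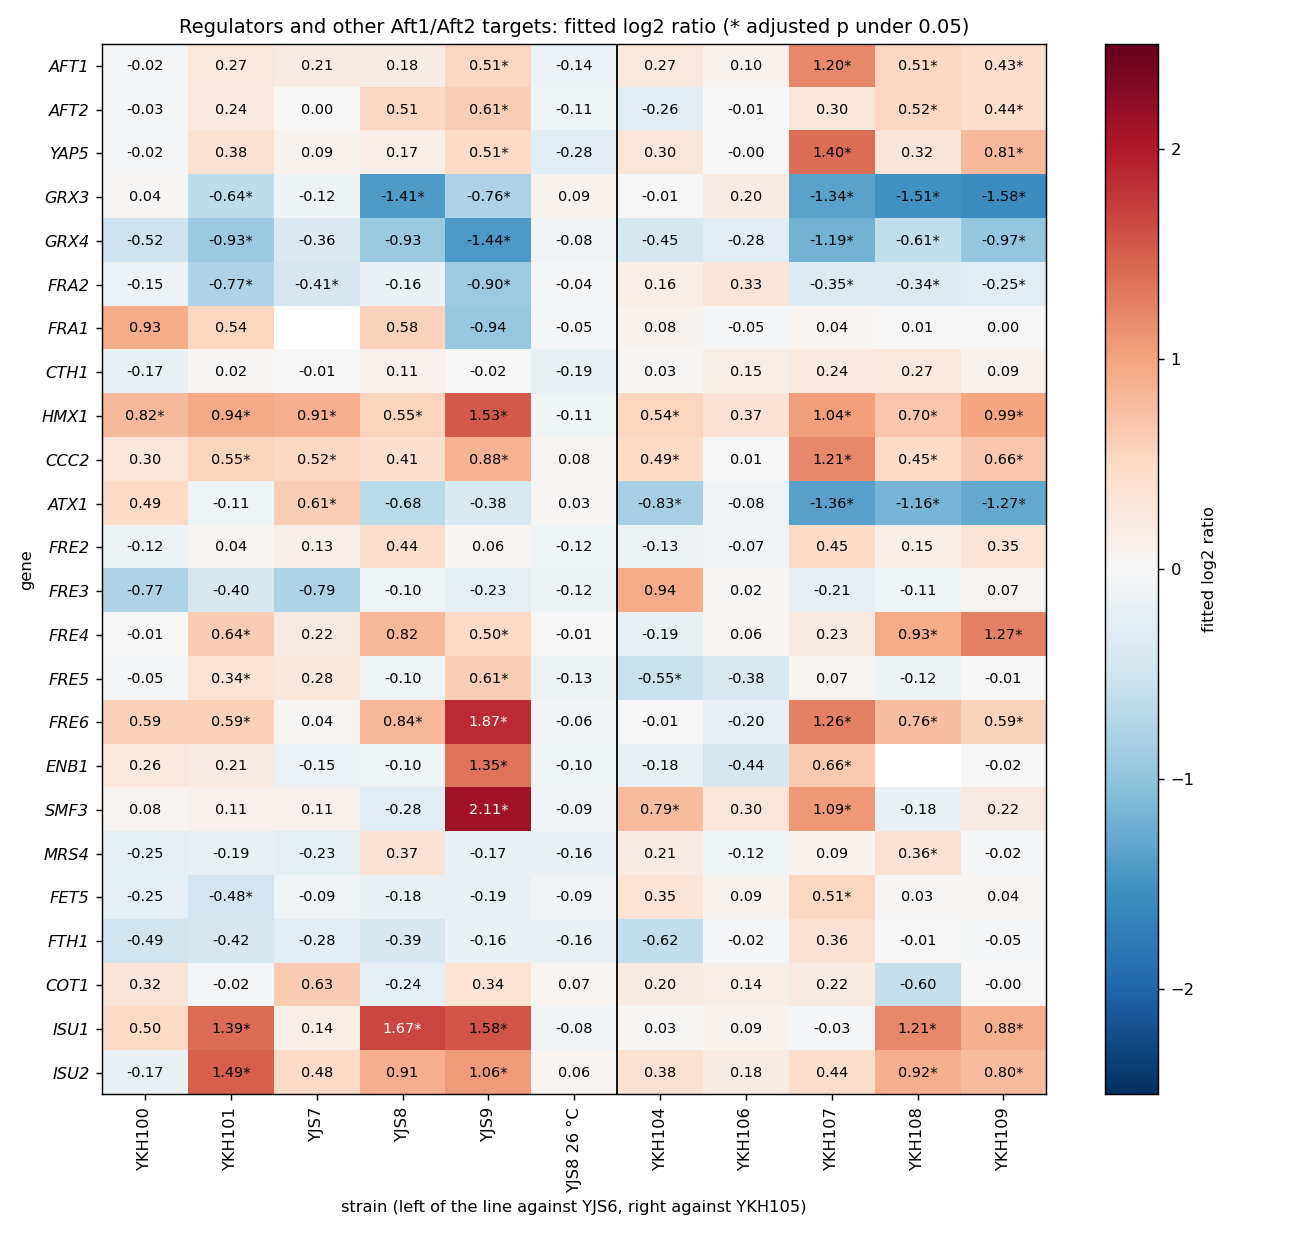
Fitted centred log2 ratio of the iron regulators and the other Aft1 and Aft2 targets (rows) in each strain group (columns), with values in the cells, an asterisk where the limma adjusted p was under 0.05 and blank cells where a gene was not tested. GRX3 is below 0 with an asterisk in 6 columns and HMX1 above 0 with an asterisk in 9, and SMF3 at 2.11 in YJS9 is the highest value shown.

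FET4, the low-affinity transporter for ferrous iron and other metals, was called lower in 9 groups, from -0.37 in YKH104 to -1.76 in YKH101, with the sign kept on both other scales. It was at -0.97 ± 0.11 in YJS9, where the high-affinity genes FET3, ARN1 and SIT1 were raised, and at -0.40 ± 0.11 in YKH107. Its list, vacuolar and low-affinity metal transport, had 10 genes tested. Of these, 2 were called lower and 3 higher in YJS9, where 23.1% of all genes were lower and 20.9% higher. In YKH107, 3 were lower and 0 higher, where 24.9% of all genes were lower and 23.5% higher.

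Genes of haem synthesis were called lower and in no group higher. In limma 7 of 8 were lower in YKH107, 6 in YKH109, 5 in YJS9 and in YKH108, 3 in YKH101 and in YJS8 at 37 °C, 2 in YJS7 and 1 in YKH104. The shares of all genes called lower were 24.9% in YKH107, 27.8% in YKH109, 23.1% in YJS9, 19.9% in YKH108, 20.4% in YKH101, 7.74% in YJS8 at 37 °C, 6.93% in YJS7 and 7.09% in YKH104. HEM13, the coproporphyrinogen oxidase, was at -1.47 ± 0.14 in YJS9, and HEM15, the ferrochelatase that inserts iron, at -1.56 ± 0.29 in YKH107. All of these calls kept their sign on the deposited scale and under quantile normalisation.

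Iron-using enzymes, whose mRNAs include targets of Tis11, had 4 higher and 3 lower of 14 in YJS9 and 6 higher and 4 lower in YKH107, where 44.1% and 48.4% of all genes were called, in both directions as well. Iron-sulfur cluster assembly had 3 higher and 2 lower of 15 in YJS9 and 8 higher and 3 lower of 16 in YKH107, and of those 8 only 3 kept their sign on the deposited scale. Of 9 copper genes, 3 were higher and 0 lower in YJS9, and 2 were higher and 2 lower in YKH107. The 3 in YJS9 kept their sign on the deposited scale, where 0 of them passed. Beside these counts, 20.9% of all genes were called higher and 23.1% lower in YJS9, and 23.5% higher and 24.9% lower in YKH107. SOD1, the copper and zinc superoxide dismutase, was at 1.34 ± 0.20 in YJS9 and 2.46 ± 0.20 in YKH101, where 3 of the 10 iron uptake genes were called.

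Several members lie near chromosome ends, with 4 genes between ARN2 and the nearer end in the RefSeq gene table of assembly R64, 7 for FIT1, 11 for ARN1, 12 for SIT1 and FIT3 and 13 for FIT2, against 51 for FTR1, 193 for FET3 and TIS11 and 242 for FRE1. FIT1 and ARN2, the members nearest an end, had 1 and 3 calls, and ARN1, SIT1, FIT2 and FIT3 had 6, 5, 4 and 2. FTR1, FET3, TIS11 and FRE1, farther from an end, had 0, 3, 1 and 2. The neighbours of the members mostly took other values. HSP31, next to FIT1, was at 1.55 ± 0.14 in YJS9 and -1.12 ± 0.14 in YKH107, where FIT1 was at 0.16 and -0.30. HPA3, next to SIT1, was at -1.49 ± 0.16 in YJS9, where SIT1 was at 1.99.

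ARN1 has EFM1 beside it, which was higher in YKH107 and YJS9 too, at 0.79 ± 0.23 and 0.74 ± 0.23, beside ARN1 at 3.54 and 1.64, and on the deposited scale EFM1 in YKH107 was -0.17. FRE5, the gene after FIT3, was at 0.61 ± 0.11 in YJS9 and 0.07 ± 0.11 in YKH107, where FIT3 was at 2.03 and 1.26. COS8 and PAU13 on either side of ARN2, both of families of closely related genes whose spots may read several copies, were called lower in YKH108 and YKH109, as ARN2 was, with COS8 at -0.43 and -0.51 and PAU13 at -0.91 and -0.75. In YKH107, where ARN2 was at 0.55, COS8 was at -0.42 ± 0.13.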

How the data were processed

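The authors deposited log2 ratios, 1 per spot and array, per the labels from arrays read with GenePix software. The base was checked from the values. How they were normalised is not stated there. Of 6400 spots, 5578 carried 1 gene and 822 none by the platform annotation. Gene IDs of 5573 spots matched the supplied RefSeq gene table. Spots of a gene were averaged, and the array median was subtracted.

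A linear model was fitted to 21 arrays with limma 3.58.1 in R 4.3.3 (lmFit, eBayes), with 1 term for each of 11 strain and temperature groups and 1 gene-wise dye term. Genes needed values on at least 18 arrays and in both orientations of the group, or on the 1 array of YKH100 and YJS8. The p-values were adjusted by the Benjamini-Hochberg method over all genes of a comparison and called under 0.05. Residual degrees of freedom were 9, with 2.87 added by the prior. All groups shared 1 spread per gene, so that groups with 1 array were assumed to vary like the others. Positive correlation of opposite orientations was read as ratios already turned by the authors. Against YKH105, channel and array number series cannot be told apart. The number of arrays limits the precision. The script was tested on simulated data.

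All 10 members are named. Of the other lists, up to 4 called genes per group with the largest values were named, besides the 5 most alike genes and the chromosomal neighbours. Further names are said to be chosen after their values were seen. The members and lists were chosen with earlier results of these data known. Alternatives were the deposited scale, quantile normalisation, no dye term, an array series term, 3 uses of the repeated column, self arrays in the fit, no filter, robust eBayes, the first spot, each array left out, and YKH109 left out. Of the 17 other Aft1 and Aft2 targets listed, 16 were matched on the array. Promoter and protein sequences were not used here.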

Additional observations from a re-analysis of the deposited data

Results flagged for a closer look

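Beside 2.91 and 3.16 in YJS9, FIT2 was at -0.11, -0.15, -0.12 and 0.40 on the 4 YJS6 self arrays. There the gap between the highest array and the next made up 0.930 of the whole range. Chance alone marks about 1 in 20 groups in this way, and this was the 1 such mark among the 10 members.

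The column that stands under both YKH100 and YJS8 at 37 °C was left out of the model. In it, 6 members lay outside their range on the 7 self arrays: FRE1 at 0.999, TIS11 at 0.997, FIT2 at 0.68, SIT1 at 0.58, ARN2 at 0.44 and FET3 at -0.38. The labels do not settle to which strain it belongs. On the remaining array of YKH100, FRE1 was at 0.74, ARN2 at 0.14 and FET3 at -0.65, and on that of YJS8 they were at -0.28, -0.54 and 0.86.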

How the results depend on the processing

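No paired analysis was possible because the labels give no replicate numbers and replicate 1 always had the strain in channel 1, so that a replicate block cannot be separated from the dye term. The counts of called members stayed within 1.5 times their value with no dye term, an array series term, no filter, robust eBayes or the first spot. On the deposited scale the count was 1 (lower) in YKH101 and 0 in YJS7, YJS8 and YKH104. In that order, 33.2%, 0.462%, 2.24% and 0.145% of all genes were called on that scale. On it 7 pair differences passed, among them 5 of the 33 pair calls. These 5 were ARN1 in the pairs with YKH107 and FET3 in YKH108 against YKH106. Of the 110 member values, 27 changed sign there. Those called on either scale, with the pair calls that did so, were FRE1 in YKH101 (-0.14) and YKH109 (-0.88), ARN1 in YJS8 (-0.12), ARN2 in YKH107 (-0.41), SIT1 in YKH109 (-0.29), and ARN2 in YKH107 against YKH104 (-0.24) and YKH106 (-0.33). Of the 27 member calls, 11 passed there in the same direction, and 16 under quantile normalisation. Quantile normalisation gave 2 in YKH100, 1 in YKH101, 0 in YJS8, 2 (lower) in YKH106, 3 in YKH107 and 1 in YKH109. In that order, 4.48%, 22%, 5.65%, 8.98%, 23.5% and 27.1% of all genes were called under it. It gave 11 pair calls, all among the 33. The repeated column gave 2 in YKH100, alone or under both strains, and 0 in YJS8, alone or under both. The shares of all genes called were 5.78% and 3.58% in YKH100 and 6.62% and 8.53% in YJS8. With self arrays in the fit the counts were 1 in YKH100 and 2 in YJS8, where 2.04% and 18.1% of all genes were called. Without the YKH109 arrays the counts were 0 in YJS8 and 1 in YKH106, where 19% and 1.6% were called. Leaving out each array gave 1 to 1 in YKH101, 1 to 3 in YJS7, 6 to 7 in YJS9, 0 to 0 in YKH104, 3 to 4 in YKH107, 2 to 3 in YKH108 and 2 to 4 in YKH109. FTR1 in YKH109 ran from -1.28 without replicate 2 to 0.88 without replicate 3. The cause of these shifts was not tested.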
